A study of Mus musculus with 7 samples.

Results

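Replication-dependent histone genes supply most of the histone protein that is packed onto newly copied DNA. The genes described here are those of the deposited table whose mouse symbol begins with Hist1h, Hist2h, Hist3h or Hist4h, which gave 65 of the 16760 listed genes. By symbol, 6 of them belong to linker histone H1, 17 to H2a, 18 to H2b, 11 to H3 and 13 to H4. These counts include 3 pseudogenes (Hist1h2aj and Hist1h2al in H2a and Hist3h2bb-ps in H2b). The members were chosen by symbol among the genes whose measured values had passed the authors' filter on low genes (its form is not stated). The family itself was singled out with its differences between these libraries already known. The differences between groups below are therefore descriptions, and their p-values give the size of a difference against the spread between libraries, not independent support for a direction.

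Total RNA of CD150-negative mouse cells, with the cell type given as HSC (haematopoietic stem cell), was sequenced as paired reads from 4 wild-type libraries (WT) and 3 libraries with a chromosome 5 deletion within band 5G2 (5G2del). Both groups are of strain C57/B6. Losses in human band 7q22 recur in myeloid malignancies, and the 5G2 deletion is their mouse model. No source used here gives the ends or zygosity of the deletion, the age of the mice or whether libraries came from separate animals, and the spread between libraries may be partly technical. The table names the group of each library but not its sample number, so libraries carry letters (A to C in 5G2del, A to D in WT).

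In S phase the cell makes histones in step with DNA. The core histones H2A, H2B, H3 and H4 form the nucleosome, and linker histone H1 binds where DNA enters and leaves it. Most replication-dependent histone genes have no introns, sit in a few clusters and give mRNAs that end in a short stem-loop in place of a poly(A) tail. The stem-loop is bound by the protein SLBP, cleavage just after it is directed by the U7 snRNP, and the mRNAs are degraded when replication stops. Histone mRNA is therefore made mainly in dividing cells, while histone variants such as H2A.Z and H3.3 come from separate genes with polyadenylated mRNAs.

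The stem-loop is shown first because it is the feature that sets these mRNAs apart. Transcripts of the GENCODE M21 annotation (build GRCm38) were searched for a fully paired stem of 6 bases (G-T pairs allowed) opening with GG and closing with CC around a loop of 4 bases opening with TT. It was found after the stop codon of 41 of the 65 genes, which is 41 of the 49 genes (83.7%) with an annotated 3′ UTR of at least 45 bases. Anywhere in a protein-coding transcript, 411 of 21901 protein-coding genes (1.88%) held such a match. The stem-loop began between 21 bases (Hist2h2ac) and 58 bases (Hist2h2aa1 and Hist2h2aa2) after the stop codon. The 6 forms follow, as DNA letters of the sense strand with the stem in capitals and the loop in lower case.
Form of 23 genes, among them Hist1h1c, Hist1h1d, Hist1h1e, Hist1h2ac and Hist1h2bm: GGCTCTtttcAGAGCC
Form of Hist1h1t, Hist1h2bb, Hist1h2bk, Hist1h3c, Hist1h3e and Hist1h3f: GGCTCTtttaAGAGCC
Form of Hist2h2ac: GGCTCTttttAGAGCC
Form of 7 H4 genes, among them Hist1h4d, Hist1h4h and Hist4h4: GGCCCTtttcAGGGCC
Form of Hist1h4i and Hist2h4: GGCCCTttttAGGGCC
Form of Hist1h4b and Hist1h4j: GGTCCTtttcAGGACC
The stems divided by class. The left arm was GGCCCT or GGTCCT in all 11 H4 genes with a match and GGCTCT in all 30 matching H1, H2a, H2b and H3 genes. The remaining 24 genes had no match after the stop codon of the transcript used (the longest coding one), although 1 of them, Hist1h2bp, had one in another annotated transcript. A missing match says only that these letters are not in that model.

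The promoters of the 5 linker histone genes with more than trace levels are shown next, because H1 was the class whose genes separated the groups most often. Each line gives the 150 bases before the RefSeq start (build GRCm38.p6, read 5′ to 3′ on the gene's strand). Capitals mark AAACACA (the H1 box), CCAAT and TATAAA, each searched on both strands. The capital letters at the left edge of the Hist1h1d line include the end of a reversed TATAAA that starts outside the printed stretch.
Hist1h1a, chr13:23763518-23763667, plus strand: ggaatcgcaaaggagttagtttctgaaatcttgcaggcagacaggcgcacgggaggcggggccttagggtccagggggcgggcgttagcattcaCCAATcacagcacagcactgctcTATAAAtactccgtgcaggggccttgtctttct
Hist1h1b, chr13:21780626-21780775, minus strand: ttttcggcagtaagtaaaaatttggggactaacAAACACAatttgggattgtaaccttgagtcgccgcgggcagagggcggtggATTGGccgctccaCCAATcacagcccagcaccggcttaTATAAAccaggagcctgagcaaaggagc
Hist1h1c, chr13:23738657-23738806, plus strand: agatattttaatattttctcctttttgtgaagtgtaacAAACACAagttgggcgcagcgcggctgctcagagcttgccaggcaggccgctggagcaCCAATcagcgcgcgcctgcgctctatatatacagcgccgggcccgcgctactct
Hist1h1d, chr13:23554882-23555031, plus strand: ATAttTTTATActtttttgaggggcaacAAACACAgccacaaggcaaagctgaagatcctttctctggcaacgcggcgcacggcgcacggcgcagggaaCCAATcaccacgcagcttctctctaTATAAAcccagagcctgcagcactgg
Hist1h1e, chr13:23622559-23622708, minus strand: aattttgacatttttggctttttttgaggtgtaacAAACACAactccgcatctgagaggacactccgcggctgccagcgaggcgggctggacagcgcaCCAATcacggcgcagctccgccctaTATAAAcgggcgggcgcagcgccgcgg
AAACACA lay between 112 and 122 bases before the start in Hist1h1b, Hist1h1c, Hist1h1d and Hist1h1e, and the CCAAT nearest the start lay 51 to 56 bases before it in the 5 genes. No AAACACA was found in the Hist1h1a window. In windows from 250 bases before to 50 bases after the start, available for 57 of the 65 genes, AAACACA stood in 5 of 6 H1 promoters, 1 of 15 H2a, 1 of 15 H2b, 0 of 9 H3 and 0 of 12 H4, against 7.18% of all 32851 RefSeq promoters. CCAAT stood in each of the 45 H1, H2a, H2b and H3 promoters but in 3 of 12 H4 promoters, against 37.4% of all promoters. The octamer motif ATTTGCAT was found in 5 of 15 H2a and 5 of 15 H2b promoters and in no promoter of the other 3 classes, against 1.74% of all. TATAAA was found in 4 of 6 H1, 9 of 15 H2a, 7 of 15 H2b, 4 of 9 H3 and 8 of 12 H4 promoters, against 13.6% of all. A match is a description of the letters, not of a bound site.

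The libraries were checked before the histone genes were compared. The listed expected counts summed to 37930174 to 52194274 per library. The library sizes by which the authors divided them to give CPM, a depth-scaled expected count, ran from 34865420 to 55716549. The listed counts came to 0.914 to 0.982 of that size in 5 libraries but to 1.16 of it in 5G2del-C and 1.21 in WT-C, so CPM values in these 2 libraries are raised relative to a plain share of the listed counts. Mitochondrial ribosomal RNA took 22.9% to 33.4% of the listed counts. In WT-B, 1104 genes were at 0 counts, where the other 6 libraries had 83 to 492 such genes. The deleted-band genes Cux1, Trim56, Fis1 and Lrwd1 were lower in 5G2del by 1.12, 1.05, 0.89 and 0.90 on the log2 scale, with no overlap between groups. The 7 surface markers of early blood progenitors were measured in all libraries, among them Kit (log2 CPM 8.11 in WT and 8.20 in 5G2del on average) and Cd34 (8.17 and 8.30). Slamf1, which encodes CD150, was low, and its log2 CPM was higher in 5G2del without overlap (-1.10 in WT and 0.56 in 5G2del on average, log2 fold change 1.66). Cd48 had a log2 fold change of 0.99, Procr of 0.22, Flt3 of -0.20 and Ly6a of -0.42, each with overlap. The mean log2 CPM over the 7 markers was 5.91, 5.78 and 6.08 in the 5G2del libraries and 5.69, 5.25, 5.62 and 5.72 in the WT libraries, without overlap. This mean includes the low Slamf1, and the median log2 fold change of the 7 was 0.13. Summed CPM of the 7 overlapped between groups, at 918 to 1110 in 5G2del and 852 to 1204 in WT. The part of these markers in the histone values was not tested. These are bulk samples, in which a larger share of cells that express a gene and more RNA per cell cannot be told apart.

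The summed histone level was higher on average in 5G2del. The 65 genes summed to 1002 CPM in 5G2del-A, 881 in 5G2del-B and 1526 in 5G2del-C, and to 630, 693, 855 and 826 CPM in the WT libraries A to D. The 5G2del libraries lay above the WT libraries without overlap, 5G2del-B exceeded WT-C by little, and 5G2del-C stood well above the other 6. The WT mean was 751 ± 107 CPM (SD, n = 4) and the 5G2del mean 1136 ± 343 CPM (SD, n = 3), a ratio of 1.51, or 1.25 without 5G2del-C. With the listed counts as the denominator in place of the library size, the sums were 1088, 957 and 1319 in the 5G2del libraries and 672, 758, 709 and 841 in the WT libraries. On that scale the groups also did not overlap, WT-D in place of WT-C was the highest WT library, and the ratio was 1.51, or 1.37 without 5G2del-C.

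**Figure D1:**
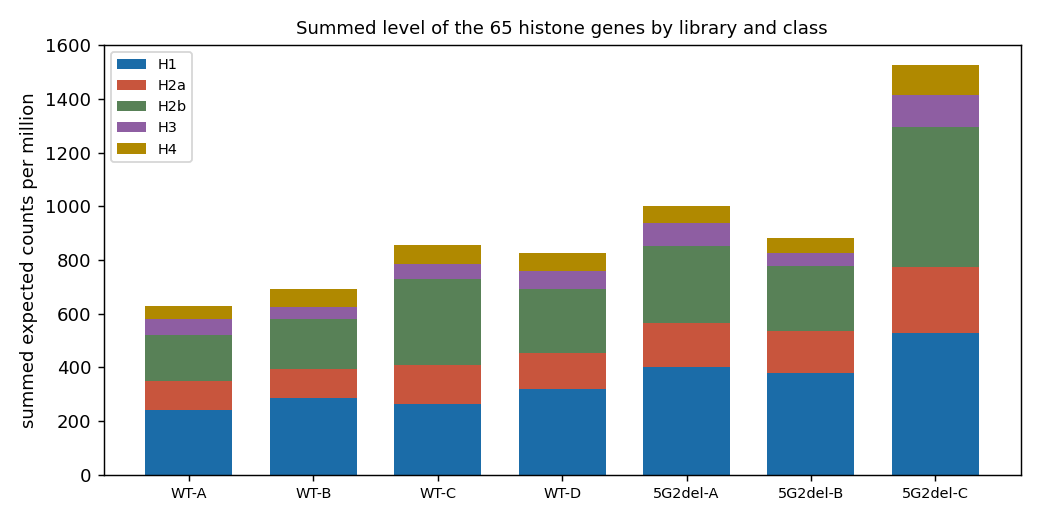
Summed CPM (y axis, linear from 0) of the 65 histone genes in each library (x axis), stacked by class. The 3 5G2del bars reach 1002, 881 and 1526 CPM and the 4 WT bars 630 to 855 CPM, with H1 and H2b the largest segments.

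By class, the stacked bars of summed level show H1 at 403, 381 and 529 CPM in 5G2del against 243 to 319 in WT, without overlap and at a ratio of 1.58 (1.41 without 5G2del-C). The ratio was 1.51 for H2a, 1.53 for H2b, 1.45 for H3 and 1.22 for H4. Without 5G2del-C it was 1.27 for H2a, 1.16 for H2b, 1.14 for H3 and 0.958 for H4. Of the summed histone level, H4 made up 8.45% ± 0.907 in the 4 WT libraries and 6.68% ± 0.458 in the 3 5G2del libraries (SD), and H1 made up 37.3% ± 4.58 and 39.4% ± 4.34 (SD).

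Gene by gene, 58 of the 65 had a higher mean log2 CPM in 5G2del than in WT, where 53.3% of all listed genes did. The median log2 fold change (5G2del over WT) was 0.65 over the histone genes and 0.03 over all genes. In a moderated linear model over the 16760 genes (limma-trend), no histone gene passed a Benjamini-Hochberg adjusted p of 0.05, the lowest adjusted p among them being 0.989. No listed gene passed either (0% of all genes). At an unadjusted p under 0.05, 14 histone genes were higher in 5G2del, where 1.68% of all genes were, and 0 were lower, where 2.24% of all genes were. The 3 5G2del values all lay above the 4 WT values for 11 histone genes (2.92% of all genes) and all below for 0 (2.78% of all genes). In the authors' deposited table, 16 histone genes were higher at an unadjusted p under 0.05 (2.07% of all genes), 0 were lower (1.66% of all genes), and the median log2 fold change was 0.65.

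**Figure D2:**
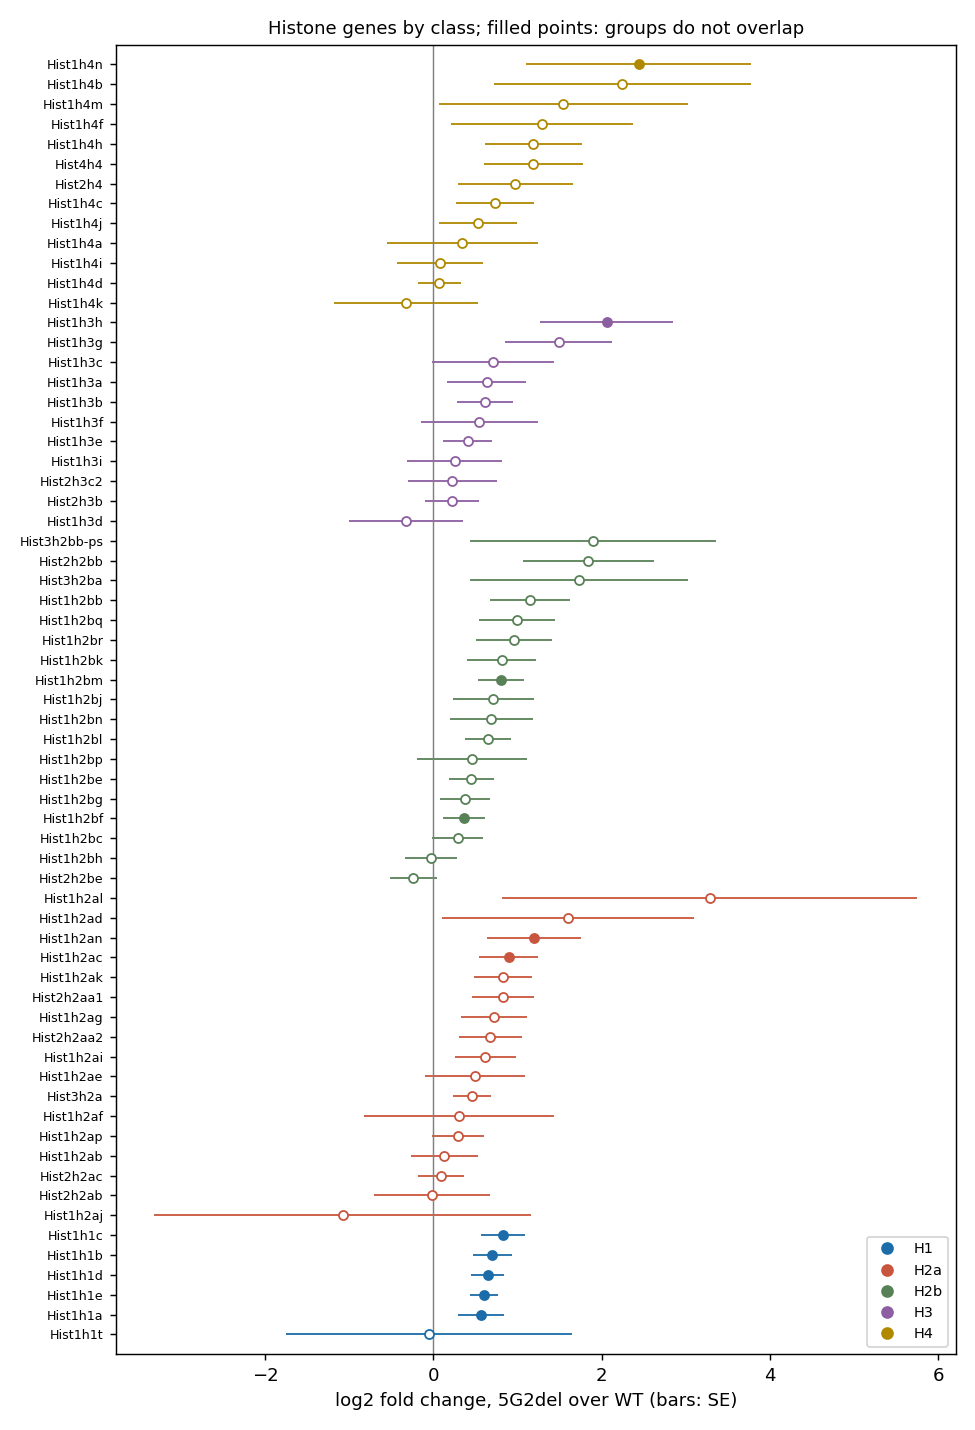
Log2 fold change of each histone gene, 5G2del over WT (x axis), with bars of 1 standard error, grouped by class (y axis, 1 gene per line). Filled points mark the 11 genes whose groups do not overlap, 5 of which are H1 genes, and 58 of 65 points lie right of 0.

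The share of each class that lay right of 0 in the plot of fold changes was 5 of 6 for H1, 15 of 17 for H2a, 16 of 18 for H2b, 10 of 11 for H3 and 12 of 13 for H4. The class medians were 0.62, 0.62, 0.70, 0.54 and 0.97. The H4 median depended on genes with few counts: on a log2(CPM + 1) scale, which damps them, it was 0.27, against 0.61 for H1, 0.43 for H2a, 0.56 for H2b and 0.39 for H3. Of the 65 genes, 54 were above the counting floor of 3 counts in every library, and 8 had at least 1 library at 0. The median over those 54 was 0.62. Among the 43 histone genes with a mean log2 CPM of 1 or more, 41 had a positive log2 fold change (53.3% of the 11648 genes at that level) and 12 were higher at an unadjusted p under 0.05; refitted on such genes alone, the count was 13, and 1.79% of all genes at that level were higher in the fit of all genes.

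The linker histone genes separated the groups most evenly. Hist1h1e, the H1 gene with the highest log2 CPM, had values of 7.44, 7.46 and 7.66 in the 5G2del libraries A to C and of 6.64, 7.24, 6.80 and 6.99 in the WT libraries A to D, the order kept below. The 5G2del values were tight and all above WT-B, the highest WT library. The log2 fold change was 0.60 ± 0.17 (SE; limma adjusted p = 0.989).

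Hist1h1d, a second replication-dependent H1 gene, gave 5.44, 5.14 and 5.38 in 5G2del and 4.37, 4.61, 4.74 and 4.97 in WT. The groups did not overlap, and 5G2del-C was not the highest library here. The difference was 0.65 ± 0.20 (SE) on the log2 scale. Without 5G2del-C, Hist1h1e (log2 fold change 0.53) and Hist1h1d (0.62) were the 2 histone genes of 65 with an unadjusted limma p under 0.05, where 0.979% of all genes were higher.

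Hist1h1c, which is found in both dividing and resting cells, gave 6.05, 6.11 and 6.62 in 5G2del and 4.98, 5.02, 5.78 and 5.95 in WT. WT-C and WT-D came close to the lowest 5G2del library, and WT-A and WT-B lay well below. Its log2 fold change of 0.83 ± 0.27 (SE) was the largest among the H1 genes.

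Hist1h1b had the highest level per length of the 65 genes and gave 6.48, 6.19 and 6.94 in 5G2del and 6.10, 5.73, 5.38 and 6.13 in WT. The gap between 5G2del-B and WT-D was small, and WT-C was lowest. The log2 fold change was 0.70 ± 0.23 (SE). Hist1h1b, Hist1h1c, Hist1h1d and Hist1h1e were the 4 H1 genes with an unadjusted limma p under 0.05.

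Hist1h1a, whose promoter window lacked the H1 box, gave 4.89, 4.78 and 5.99 in 5G2del and 4.47, 4.63, 4.76 and 4.77 in WT. 5G2del-B was almost level with the highest WT library, and 5G2del-C lay far above the rest. The difference was 0.56 ± 0.28 (SE) on the log2 scale, and 0.18 without 5G2del-C. The sixth H1 gene, Hist1h1t, the linker histone of male germ cells, was at or under 3 counts in 2 of the 7 libraries (log2 fold change -0.05 ± 1.70, SE).

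**Figure D3:**
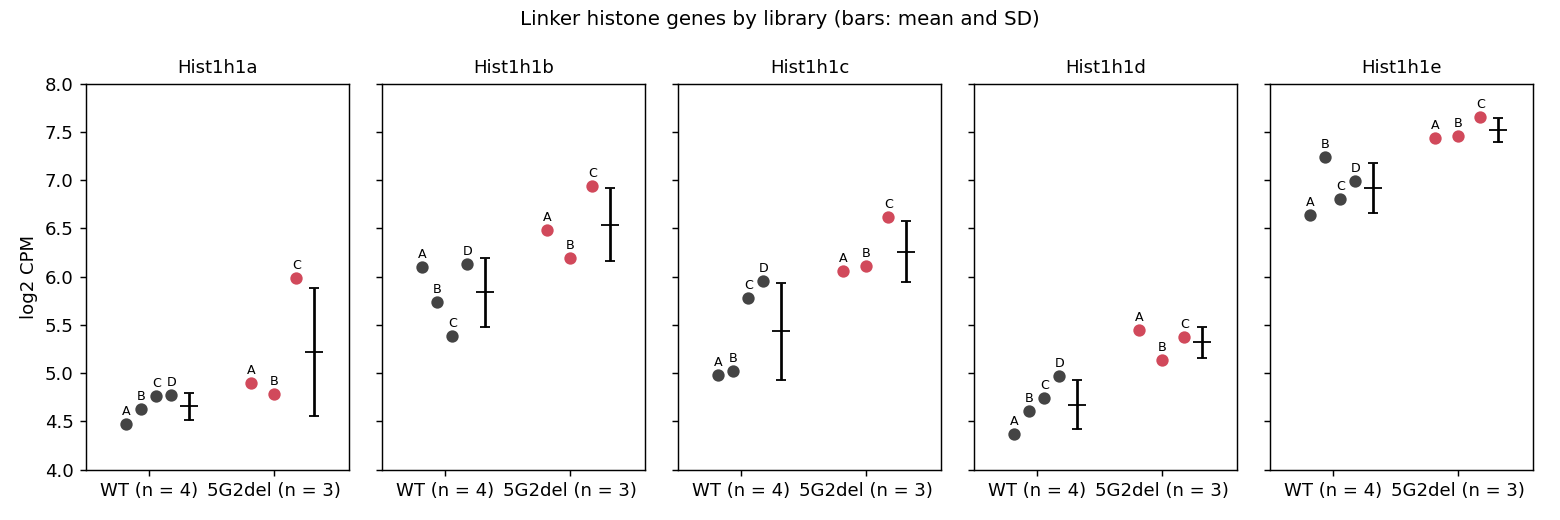
Log2 CPM (y axis) of 5 linker histone genes in each library, WT in grey and 5G2del in red, with letters for the libraries and bars for the mean and SD of each group. In each panel the 3 5G2del points lie above the 4 WT points, by little in Hist1h1a and Hist1h1b and by more in Hist1h1d.

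H2a and H2b pair as a dimer in the nucleosome, and most of their genes stand head to head in pairs. Hist1h2ac was the H2a gene with separated groups at the highest level. It gave 4.90, 5.00 and 5.69 in 5G2del and 4.53, 3.27, 4.71 and 4.69 in WT, where WT-B was far below the other 3. Its log2 fold change was 0.90 ± 0.35 (SE).

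The second H2a gene without overlap was Hist1h2an, at 1.99, 1.56 and 1.89 in 5G2del and 1.29, 1.02, -0.68 and 0.82 in WT. WT-C was the low library, and the log2 fold change was 1.20 ± 0.56 (SE). Of the 3 H2a genes higher at an unadjusted limma p under 0.05, 1 was Hist1h2ac and the others were Hist1h2ak (log2 fold change 0.83) and Hist2h2aa1 (0.83), in both of which the groups overlapped. The H2a genes below 0 were the pseudogene Hist1h2aj (-1.08 ± 2.24, SE), which was at 0 counts in 5G2del-C and WT-D, and Hist2h2ab (-0.02 ± 0.69, SE).

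Among H2b genes, Hist1h2bm separated the groups, with 4.55, 4.34 and 5.45 in 5G2del and 3.96, 3.73, 4.02 and 4.20 in WT. The log2 fold change was 0.80 ± 0.27 (SE). The neighbouring levels of 5G2del-B and WT-D again differed far less than 5G2del-C did from the rest.

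Hist1h2bf also had no overlap, with a smaller log2 fold change of 0.36 ± 0.25 (SE). Its values were 3.44, 3.27 and 3.69 in 5G2del and 3.15, 3.10, 2.91 and 3.24 in WT, so 5G2del-B and WT-D were nearly level.

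Hist1h2bq and Hist1h2br, which are close copies, ran in parallel. Hist1h2bq gave 5.02, 5.12 and 6.28 in 5G2del and 3.46, 4.23, 5.61 and 4.60 in WT, and Hist1h2br gave 5.58, 5.59 and 6.90 and then 4.03, 4.88, 6.18 and 5.18. In both, WT-C exceeded 5G2del-A and 5G2del-B and WT-A was lowest, and the log2 fold changes were 1.00 ± 0.45 and 0.96 ± 0.46 (SE). Of their 100-base windows, 94.6% and 85.8% also occur in another gene, so reads could not be assigned to one copy with certainty.

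The 5 H2b genes higher at an unadjusted limma p under 0.05 were Hist1h2bm, Hist1h2bq, Hist1h2bb (log2 fold change 1.15), Hist1h2bl (0.65) and Hist2h2bb (1.84), and all but Hist1h2bm overlapped between groups. Hist2h2be and Hist1h2bh had log2 fold changes of -0.24 ± 0.28 and -0.03 ± 0.31 (SE). Hist2h2be is known to give polyadenylated mRNA in resting cells as well. It had values of 4.18, 3.90 and 4.28 in 5G2del and 4.59, 4.50, 4.76 and 3.60 in WT, so 3 of the 4 WT libraries exceeded the highest 5G2del library.

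On the log2 CPM scale H3 had the lowest class median, with and without 5G2del-C. The H3 gene without overlap was Hist1h3h, at a low level, with 1.17, 0.05 and 0.91 in 5G2del and -0.41, -2.57, -0.77 and -1.65 in WT. The log2 fold change was 2.06 ± 0.79 (SE). Hist1h3g had one of 1.49 ± 0.64 (SE), and its groups overlapped, because WT-D exceeded 5G2del-B. These were the 2 H3 genes with an unadjusted limma p under 0.05.

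The H3 genes with the highest levels differed less. Hist1h3b gave 4.56, 3.75 and 5.09 in 5G2del and 3.89, 3.32, 3.85 and 4.33 in WT, and Hist1h3e gave 4.24, 3.74 and 4.88 and then 3.45, 3.98, 3.88 and 4.18. In both genes 5G2del-B lay inside the WT range. The log2 fold changes were 0.62 for Hist1h3b, 0.41 for Hist1h3e and 0.22 for Hist2h3b, and Hist1h3d was at -0.33 ± 0.68 (SE).

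The H4 gene with the highest level, Hist1h4d, showed almost no mean difference. It gave 5.49, 5.18 and 6.29 in 5G2del and 5.22, 5.83, 5.67 and 5.61 in WT, so 2 of 3 5G2del libraries lay below 3 of 4 WT libraries. Its log2 fold change was 0.07 ± 0.26 (SE), and -0.25 without 5G2del-C. Since H4 genes encode one and the same protein, the summed level is of use beside them, and it lay at 55.6 to 110 CPM in 5G2del and 49.7 to 69.0 in WT.

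The other H4 genes were at lower levels, most of them with larger fold changes, although Hist1h4i was at 0.08 ± 0.51 (SE). Hist1h4b (2.24), Hist1h4f (1.29), Hist1h4m (1.55) and Hist1h4n were at or under 3 counts in at least 1 library. Hist1h4h gave 1.66, 1.35 and 0.98 in 5G2del and -0.67, 0.21, 1.08 and -0.07 in WT (log2 fold change 1.19 ± 0.58, SE). Here 5G2del-C was the lowest 5G2del library. Hist4h4 (1.19), Hist1h4c (0.74) and Hist1h4j (0.53) overlapped between groups, Hist1h4n (2.44) did not but was at 0 counts in WT-C, and Hist1h4k was at -0.32 ± 0.86 (SE).

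Levels between genes were compared per kilobase of the annotated transcript. On the log2 CPM per kilobase scale, Hist1h1b (6.57) and Hist1h1e (6.23) were highest, followed by Hist1h2bl (5.96), Hist1h4d (5.43), Hist1h2ak (5.40), Hist1h1a (5.33), Hist1h2bg (5.29), Hist1h2bm (5.25), Hist1h1c (5.15) and Hist2h2aa2 (5.11). Neighbours from Hist1h4d to Hist2h2aa2 differ by less than the spread of single genes between libraries. Hist1h1t was lowest (-2.01). The value of Hist1h1d (2.06) rests on an annotated transcript of 7425 bases for a coding length of 663.

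The differences were uneven across libraries. 5G2del-C was the highest of the 7 libraries for 43 of the 65 histone genes, where it was highest for 14.5% of all genes. WT-A was lowest for 22 and WT-B for 24 of the 65, and 32 genes had 5G2del-C highest with WT-A or WT-B lowest. How often each library was lowest over all genes was not counted, so these counts have no background beside them. Over all listed genes the mean log2 CPM was 2.28 in WT-B and 2.50 to 2.68 in the other libraries. After each gene was centred on its mean over the 7 libraries, the median over the 65 genes was 0.23, 0.0084 and 0.93 in the 5G2del libraries and -0.39, -0.52, -0.04 and -0.02 in the WT libraries. On this scale 5G2del-B lay above WT-C and WT-D by far less than the pooled SD within groups of 0.36.

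Leaving out 5G2del-C left 51 of 65 genes with a positive log2 fold change, where 9145 of all 16760 genes had one. Of the 65, 2 were higher at an unadjusted limma p under 0.05 (0.979% of all genes). The class medians were then 0.52 for H1, 0.43 for H2a, 0.35 for H2b, 0.11 for H3 and 0.64 for H4, with 6 of 11 H3 genes positive. Leaving out WT-A gave 8 histone genes higher at an unadjusted p under 0.05 (2.35% of all genes), and leaving out WT-B gave 9 (2.54% of all genes). The log2 fold change was positive whichever library was left out for 46 of the 65 genes. The same count over all genes was not made, so it has no background beside it.

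The genes that act on histone mRNA and histone protein were read beside them. Of 28 measured genes for histone transcription and mRNA processing, 18 had a positive (53.3% of all genes) and 10 a negative log2 fold change (median 0.09). At an unadjusted limma p under 0.05, 1 was higher (1.68% of all genes) and 1 lower (2.24% of all genes). E2f1, an S phase transcription factor, was at 0.97 ± 0.42 (SE). Srrt, which encodes the cap-complex partner ARS2 used in histone mRNA processing, was at -0.51 ± 0.17 (SE) without overlap, and it lies in the chromosome band that carries the deletion. Cdk2, the kinase that activates NPAT, was at 0.42 without overlap. Npat, the coactivator of histone gene transcription, was at 0.14, Casp8ap2, its partner in the histone locus body, at 0.08, and Slbp, the stem-loop binding protein, at 0.20, all with overlap.

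Replication-independent variants showed smaller differences than the clustered genes. Of 12 measured, 7 were positive (53.3% of all genes) and 5 negative (median 0.07), and 2 were higher at an unadjusted limma p under 0.05 (1.68% of all genes). These were H2afz, which encodes H2A.Z (0.36 ± 0.16, SE), and H2afj (0.72 ± 0.26, SE), both with overlap. H3f3a and H3f3b, which encode H3.3, were at 0.10 and -0.08, H2afx at 0.18 and H1f0, the linker histone of resting cells, at -0.13.

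Of 25 measured histone chaperones and assembly factors, 18 were positive (53.3% of all genes), with a median of 0.09. None had an unadjusted limma p under 0.05, where 1.68% of all genes were higher and 2.24% lower. Asf1b, the proliferation-linked H3-H4 chaperone, was at 0.89 ± 0.49 (SE) and Chaf1b, a subunit of chromatin assembly factor 1, at 0.37 ± 0.21 (SE).

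S phase genes, such as the MCM helicase and DNA polymerase subunits, are transcribed with the histone genes in cycling cells. Of 40 measured, 36 were positive (53.3% of all genes), with a median of 0.25. At an unadjusted limma p under 0.05, 2 were higher (1.68% of all genes), namely Prim1 (0.41) and Uhrf1 (0.67). Their library order differed from that of the histone genes. The mean log2 CPM over the 40 genes was 5.14, 5.45 and 5.17 in the 5G2del libraries and 5.27, 5.08, 4.61 and 5.09 in the WT libraries. The mean over the 43 histone genes with a mean log2 CPM of 1 or more was 3.69, 3.36 and 4.37, and then 2.99, 3.00, 3.43 and 3.46. For S phase genes 5G2del-B was highest and WT-A second highest. For the 43 histone genes WT-A and WT-B were lowest and nearly level, and 5G2del-B was lowest of the 5G2del libraries, close to WT-C and WT-D. Over all 65 histone genes the mean was 2.39, 2.07 and 2.88, and then 1.58, 1.21, 2.00 and 2.06, with WT-B lowest and 5G2del-B level with WT-D.

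Histone mRNAs mostly lack a poly(A) tail, so other RNAs without one were examined, a list drawn up after the histone values had been seen. The amplification kit primes with both random and oligo-dT primers. The mean log2 CPM of 9 such genes under 7 symbols (Rmrp, Rn7s1, Rn7s2, Rn7sk, Rpph1, Scarna2 and Terc) was 2.72, 2.80 and 3.51 in the 5G2del libraries and 1.07, 3.44, 3.83 and 3.36 in the WT libraries. Rn7s1 and Rn7s2 had identical values in every library, and Rmrp and Terc each entered more than once. The mean therefore rests on fewer distinct RNAs than 9. The groups overlapped, 5G2del-C was the highest 5G2del library and WT-A was far below the other 6. The part of this in the histone values was not tested.

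**Figure D4:**
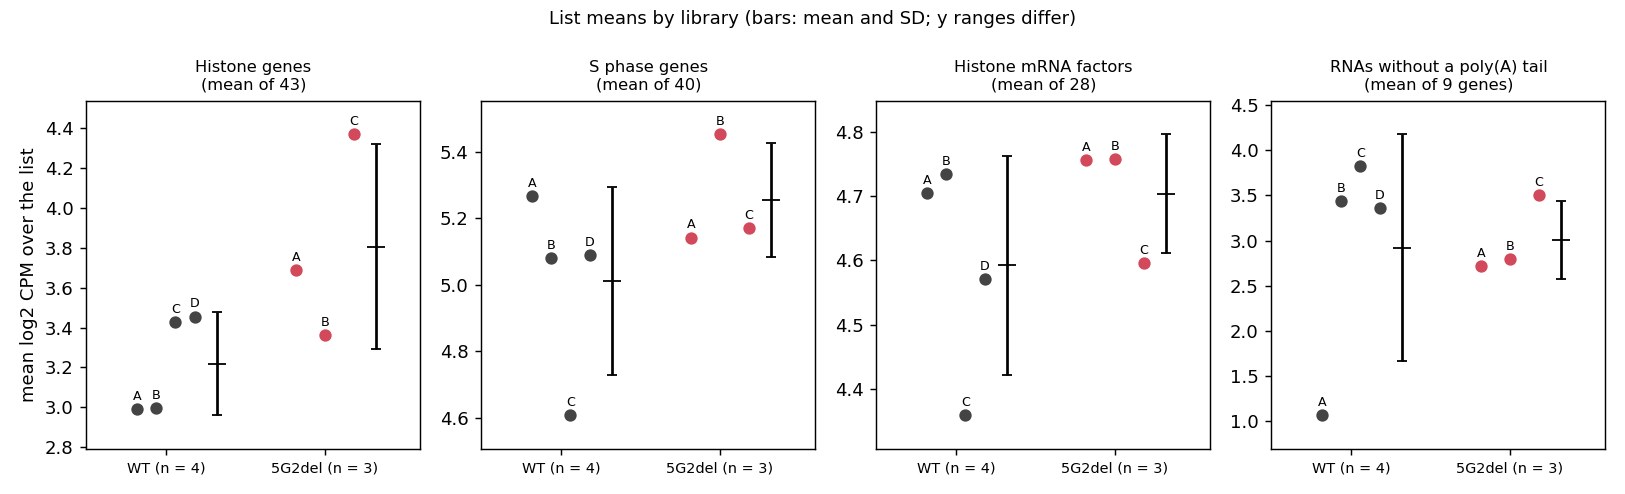
Mean log2 CPM over each gene list (y axes, with different ranges) in each library, WT in grey and 5G2del in red, with bars for the mean and SD of each group. The histone panel has 5G2del-C highest and WT-A and WT-B lowest, the S phase panel has 5G2del-B highest, and the panel of RNAs without a poly(A) tail has WT-A lowest at 1.07.

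Markers of other blood cells also differed between libraries. B lineage markers (7 of 11 measured) summed to 60.6 to 568 CPM in 5G2del and 33.5 to 137 CPM in WT, with 5G2del-A and 5G2del-C highest. Of the 7, 6 had a positive log2 fold change, where 53.3% of all genes did. Igkc, an immunoglobulin light chain gene, was at 6.83 and Jchain, which links antibody units in plasma cells, at 4.53, the latter without overlap. In WT-D, however, Igkc was at 0 counts (log2 CPM -6.60) and Jchain under 3 counts (-4.28), so neither fold change is usable as a size. Ebf1, a transcription factor of early B cells, was at -0.71 and at 0 counts in 5G2del-A and WT-B. Neutrophil and monocyte markers (10 of 14) summed to 259 to 1630 CPM and 217 to 606 CPM, with 5G2del-A and WT-A highest, and Cd177 was at 0 in 5G2del-B, WT-B and WT-C. Megakaryocyte and platelet markers (11 of 14) summed to 324 to 405 CPM and 241 to 434 CPM, with overlap. Their mean log2 CPM, however, was 2.44, 2.78 and 2.74 in the 5G2del libraries and 2.05, 2.23, 2.14 and 1.89 in the WT libraries, without overlap. The median log2 fold change of the list was 0.19, with 7 genes positive and 4 negative. Most of the difference in mean log2 CPM came from Treml1, a platelet receptor gene at 0 counts in WT-B and WT-D. Treml1 was at 5.71 without overlap, and Itga2b, which encodes CD41, at 0.93 with overlap. The erythroid, T and NK, macrophage and dendritic, stromal and mast cell lists overlapped between groups both in summed CPM and in mean log2 CPM. The part of these cells in the histone values was not tested.

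Because paralogs share sequence, the fold changes were also read by how much of a transcript is unique. For each gene, the share of 100-base windows (the read length) that also occur in a transcript of another gene was counted. Of the 14 genes with under 10% of windows shared, 11 were positive (53.3% of all genes), and the median was 0.75. Without overlap and higher in 5G2del were 6 of them (2.92% of all genes). These 6 were Hist1h1a, Hist1h1b, Hist1h1c, Hist1h1d, Hist1h2ac and Hist1h2bm, all described above. The median was 0.53 over 25 genes with 10% to 50% shared and 0.68 over 26 genes with more. Hist1h1a and Hist1h1b shared no window, Hist1h1d 0.79% and Hist1h1c 5.07%. Hist1h1e shared 24.7%, nearly all of it with a long annotated transcript of Hist1h2be that overlaps it. All windows of Hist2h2aa1, Hist2h2aa2, Hist2h3b and Hist2h2bb occur elsewhere, and the values of these 4 genes are uncertain. Among the genes without overlap between groups, Hist1h3h shared 92.0%, Hist1h2an 83.3% and Hist1h4n 80.7%, and their values are uncertain as well.

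**Figure D5:**
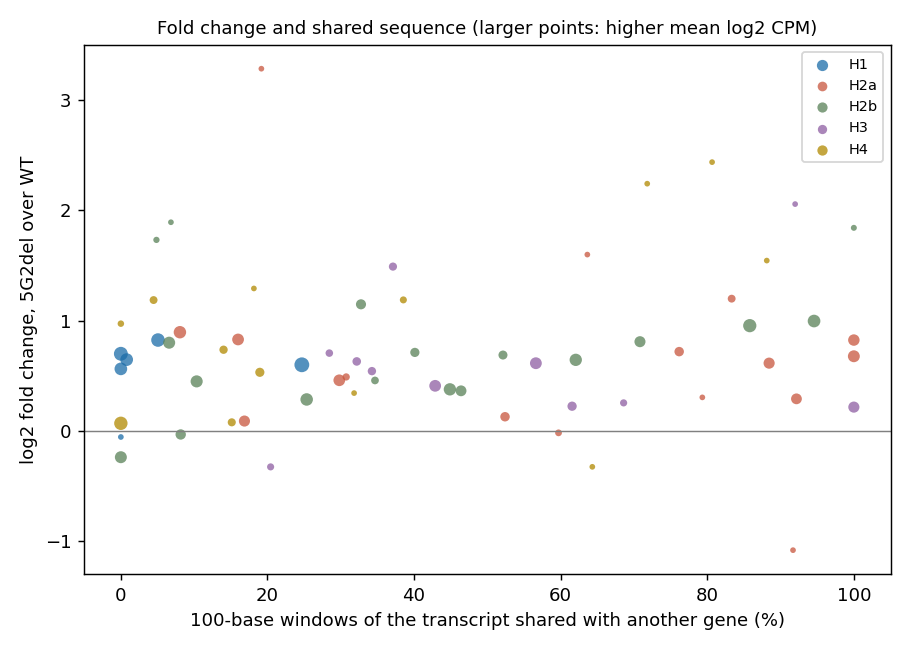
Log2 fold change, 5G2del over WT (y axis), against the share of 100-base transcript windows found in another gene (x axis, percent), 1 point per histone gene, coloured by class and larger at higher mean log2 CPM. Positive values appear across the whole x axis, with medians of 0.75, 0.53 and 0.68 in the low, middle and high ranges. The 5 H1 points between 0 and 5.07% include Hist1h1t at -0.05, and Hist1h1e lies at 24.7%.

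Position and transcript form were compared last. On chromosome 13 (GRCm38), the 29 genes between 23531050 and 23764406 (Hist1h4h to Hist1h1a) had a median log2 fold change of 0.56, with 26 positive, and the 22 genes between 21715763 and 22043676 (Hist1h2bl to Hist1h2bj) a median of 0.71, with 20 positive. The 9 genes on chromosome 3 between 96219865 and 96270132 (Hist2h2ab to Hist2h2bb) had a median of 0.23, with 7 positive. Over all listed genes, 53.3% were positive. The 3 genes on chromosome 11 between 58948920 and 58956830 (Hist3h2ba to Hist3h2a) gave 1 usable difference, 0.46 for Hist3h2a, since Hist3h2ba and Hist3h2bb-ps were at or under 3 counts in 1 or more libraries. None of the 65 genes lies on chromosome 5, which carries the deletion.

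Of the 12 pairs of histone genes that start back to back, 11 join an H2a with an H2b gene, and in 9 pairs both members were positive. How many such pairs of other genes were both positive was not counted. Hist1h2ac (0.90) and Hist1h2bc (0.29), whose starts are 251 bases apart, show that partners could differ in size. Hist1h2ag (0.72) and Hist1h2bj (0.71), 270 bases apart, were alike.

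Genes whose annotated transcript runs more than 500 bases past the stem-loop, as polyadenylated forms do, numbered 11 and had a median of 0.60. The median was 0.69 over the 30 genes whose transcript ends within 500 bases of it, 29 of them positive (53.3% of all genes). It was 0.63 over the 24 without a match in the transcript used. Of the 65 genes, 60 are annotated with a single exon, 62 are protein-coding and 3 (Hist1h2aj, Hist1h2al and Hist3h2bb-ps) are pseudogenes. A further 5 annotated genes (Hist2h3c1, Hist1h2ao, Hist1h2ah, Hist1h2ba and Hist1h2aa) were not analysed here.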

How the data were processed

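One deposited table was used, with 7 libraries of total RNA (Ovation RNA-Seq System V2, paired ends on a NovaSeq instrument, per the labels' protocols). STAR 2.7.9a, RSEM 1.3.0 and limma 3.50.3, and the builds mm10 and GRCh38 without a role, are named per the submitters' processing notes. The values the authors deposited are log2 CPM on an offset of 0.5 count, beside which the table gives a log2 fold change, a t score, a p-value and a q-value made by the authors. The log2 CPM was stepped back to expected counts for depth and floors only, and the floor of 3 counts covers counting error alone. RSEM shares reads out between similar sequences, and no source says whether strand was used, which makes values of near-identical or overlapping histone genes uncertain.

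The 65 histone genes and the gene lists were chosen with earlier results of these data known. 5G2del (n = 3) and WT (n = 4) were compared with limma 3.58.1 in R 4.3.3 on the deposited log2 CPM of all 16760 genes (limma-trend, no covariate, two-sided, Benjamini-Hochberg adjustment over all genes), after a check on simulated data. Genes named were, per class, the 3 with the highest mean log2 CPM, the 2 with the smallest p and those without overlap between groups; from each partner list and the S phase genes, the 3 highest and the 3 with the smallest p, with 8 fixed genes. Further genes were named after their values were seen. Alternatives were limma without the trend, quantile normalization, scaling without mitochondrial genes or to all listed counts (the latter added later), log2(CPM + 1), a minimum mean log2 CPM of 1, the authors' table and leaving out each library. Positions, transcripts and 3′ ends came from GENCODE M21 and promoters from RefSeq, matched by symbol or synonym.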

Additional observations from a re-analysis of the deposited data

Results flagged for a closer look

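In the WT group of 4 libraries, 1 library stood far from the other 3 for 6 of the 65 histone genes, by Dixon's criterion. That criterion flags about 1 in 20 groups by chance, and the share flagged over all genes was not counted. The 65 genes share the same libraries, so their count cannot be weighed against that rate. WT-B was low for Hist1h2ac (log2 CPM 3.27, the next being 4.53). WT-A was low for Hist1h2ak (2.89, the next being 3.90) and for Hist1h4j (1.03, the next being 1.92). WT-D was high for Hist3h2a (4.14, the next being 3.70). For the pseudogenes, WT-D was at the level of 0 counts for Hist1h2aj (-6.60) and above the other 3 for Hist1h2al (1.28, the next being -6.12, which is 0 counts). The 5G2del group of 3 was too small for this criterion.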

How the results depend on the processing

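No histone gene passed an adjusted p of 0.05 under any alternative run. The median log2 fold change of the histone genes was positive throughout, between 0.39 (without 5G2del-C) and 0.87 (without 5G2del-B), with 0.43 on the log2(CPM + 1) scale. The count of histone genes higher at an unadjusted p under 0.05, 14 as reported, was 9 without the trend in the variance, and ran from 2 to 18 when 1 library was left out, being 2 without 5G2del-C, 8 without WT-A and 9 without WT-B. Over all 16760 genes the count was 281 as reported, 289 without the trend, 164 without 5G2del-C, 172 without 5G2del-B, 394 without WT-A and 426 without WT-B. Scaled to all listed counts, an alternative chosen after seeing the data, 17 histone genes and 226 of all genes were higher, with a histone median of 0.66. It was 5 over the 14 genes with under 10% of windows shared, also chosen after seeing the data, which counts fewer genes. At an unadjusted p under 0.05, 0 were lower under each alternative.

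Of 361 values of the 26 named histone genes, 5 changed sign, in 3 genes. With 1 library left out, Hist1h2bc ran from -0.046 (without 5G2del-C) to 0.59, Hist2h3b from -0.054 (without 5G2del-C) to 0.56, and Hist1h4d from -0.25 (without 5G2del-C; -0.050 without WT-A) to 0.31. Scaled without mitochondrial genes, Hist1h4d was at -0.017, Casp8ap2 at -0.012, Kit at -0.00020 and Nap1l1 at -0.016. With 1 library left out, other genes that changed sign ran from -0.090 to 0.10 (Cpsf2, 0.0025 when scaled to all listed counts), -0.30 to 0.044 (H1f0), -0.023 to 0.37 (H2afx), -0.0078 to 0.20 (H3f3a), -0.033 to 0.33 (Mcm6), -0.014 to 0.19 (Nap1l1), -0.015 to 0.35 (Npat), -0.16 to 0.0047 (Npm1) and -0.012 to 0.30 (Slbp). The cause was not tested.

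No paired analysis was possible because the columns of the table carry no replicate numbers, so the planned fit with a replicate block was not run. With 3 and 4 libraries, no single-gene difference of the size seen here passed the adjusted threshold. Genes at or under 3 counts in a library (11 of 65) carry no usable fold change, and near-identical copies cannot be told apart by these reads.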
